A study of Mus musculus with 17 samples.

Results

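Endothelial identity was examined through 9 genes that define the cells lining blood vessels, namely Pecam1, Cdh5, Kdr, Flt1, Tek, Tie1, Vwf, Emcn and Eng. They were taken by symbol from the gene count table of cultured mouse lung fibroblasts, where each of the 9 matched 1 of 55421 rows, and their levels were set beside that of Ephb4. The 17 libraries each came from 1 mouse carrying Ephb4f/f; Col1a2-CreERT2, in which both Ephb4 alleles are floxed and a Col1a2 promoter drives a Cre recombinase that tamoxifen switches on in collagen-producing cells. Ephb4 CKO mice received 4-hydroxytamoxifen at 1 mg per day for 5 days from 4 weeks of age, and Ephb4 control mice of the same genotype received corn oil. At 6 weeks of age the mice were given bleomycin at 1.2 U/kg, which damages lung tissue so that scarring develops, or PBS, and fibroblasts were cultured from the lungs 14 days later and passaged before RNA was taken. There were 4 Ephb4 control PBS, 4 Ephb4 control bleomycin, 5 Ephb4 CKO PBS and 4 Ephb4 CKO bleomycin libraries. No culture was sorted for a cell type, and the Cre is not active in endothelial cells unless they use the Col1a2 promoter.

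Endothelial cells join at their borders through the adhesion molecules PECAM1 and VE-cadherin (Cdh5), and they read VEGF through KDR and FLT1 and angiopoietins through TEK, with TIE1 as the partner receptor of TEK. Von Willebrand factor (Vwf) is stored in and released from them, endomucin (Emcn) coats venous and capillary cells, and endoglin (Eng) is a co-receptor for ligands of the TGF-beta family. Ephb4 marks veins, its ligand Efnb2 marks arteries, and the receptor is also made by fibroblasts, so a culture with endothelial cells in it could hold Ephb4 transcripts from either source. Several of the 9 genes are not exclusive to endothelium, since monocytes and macrophages can make Pecam1, Flt1 and Eng, and platelets carry Vwf.

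Sequences 250 bases upstream of the annotated start were available for 6 of the 9 genes (Kdr, Flt1, Tek, Tie1, Emcn and Eng) and for Ephb4, from RefSeq on GRCm38.p6. Those of Tek, which followed the junction genes across the cultures, of Flt1, which did not, and of Ephb4 are shown because the levels of these 3 genes are contrasted in what follows. Capitals mark AGGAAG or, on the other strand, CTTCCT, a form of the site bound by the ETS family of transcription factors that acts in endothelial cells.
Tek, chr4:94739039-94739288, plus strand: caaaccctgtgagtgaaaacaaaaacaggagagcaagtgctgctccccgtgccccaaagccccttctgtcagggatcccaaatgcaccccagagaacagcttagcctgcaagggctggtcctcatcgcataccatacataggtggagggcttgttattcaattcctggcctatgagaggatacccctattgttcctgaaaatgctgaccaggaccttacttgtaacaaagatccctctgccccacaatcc
Flt1, chr5:147726012-147726261, minus strand: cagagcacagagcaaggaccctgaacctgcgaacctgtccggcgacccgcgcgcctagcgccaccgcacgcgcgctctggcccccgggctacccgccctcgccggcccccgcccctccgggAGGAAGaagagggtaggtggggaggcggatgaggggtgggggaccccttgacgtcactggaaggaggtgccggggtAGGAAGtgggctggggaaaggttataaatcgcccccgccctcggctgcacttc
Ephb4, chr5:137349859-137350108, plus strand: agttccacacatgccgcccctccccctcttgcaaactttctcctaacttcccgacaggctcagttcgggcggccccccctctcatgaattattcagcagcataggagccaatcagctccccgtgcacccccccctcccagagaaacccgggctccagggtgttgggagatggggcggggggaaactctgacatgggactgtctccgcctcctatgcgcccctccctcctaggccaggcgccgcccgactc
The motif was present in 4 of the 6 windows (Flt1, Tie1, Emcn and Eng) and absent from those of Kdr, Tek and Ephb4, against 29.5% of 32851 windows of the same length. Its presence did not separate the genes that followed Tek, since Tie1 held it and Tek did not. In the annotation of the same genome build, Pecam1 lies at chr11:106654217-106750628, Cdh5 at chr8:104101625-104144511, Kdr at chr5:75932827-75978458, Flt1 at chr5:147561604-147726011, Tek at chr4:94739289-94874976, Tie1 at chr4:118471191-118490061, Vwf at chr6:125546774-125686679, Emcn at chr3:137341067-137432185 and Eng at chr2:32646595-32682669. Ephb4 lies at chr5:137350109-137378669. Counts are summed over all exons of a gene. Eng shares its strand with small noncoding genes (Mir1954, Gm47291 and Gm26236) lying within it, so that reads there could have been divided between them.

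The libraries held 66540022 to 120554468 counts (median 93075927). In 3 libraries, mice 1 and 2 of the Ephb4 CKO bleomycin group and mouse 2 of the Ephb4 control bleomycin group, the transcripts of sex-linked genes went against the labelled sex, and values without them are given beside the results they touch. The cultures were not uniform. A fibroblast score, the mean log2 CPM (counts scaled by library size) of 12 fibroblast genes, ran from 7.91 to 8.81 in Ephb4 control bleomycin, 0.15 to 7.86 in Ephb4 control PBS, 1.25 to 6.26 in Ephb4 CKO PBS and 0.66 to 6.93 in Ephb4 CKO bleomycin. A macrophage score over 15 genes lay between 7.77 and 9.91 in every library except Ephb4 control bleomycin mouse 1, at 4.88. Col1a1, a collagen chain that defines fibroblasts, was as low as 0.36 CPM in Ephb4 control PBS mouse 4, whereas Lyz2, a lysozyme of macrophages, was at 863 CPM or more throughout. In bulk RNA, fewer cells of a type and less RNA per cell cannot be told apart.

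Ephb4, the gene targeted in this design, is given first. In Ephb4 control PBS mice 1 to 4 it was at 24.2, 4.00, 33.4 and 2.32 CPM, and in Ephb4 control bleomycin mice 1 to 4 at 65.1, 13.1, 35.3 and 40.5 CPM. In Ephb4 CKO PBS mice 1 to 5 it was at 7.70, 23.6, 8.97, 4.01 and 4.05 CPM, and in Ephb4 CKO bleomycin mice 1 to 4 at 14.0, 9.53, 10.1 and 4.93 CPM. The groups overlapped after PBS. After bleomycin Ephb4 CKO bleomycin mouse 1 (14.0 CPM) lay above Ephb4 control bleomycin mouse 2 (13.1 CPM). Both are among the 3 libraries whose sex-linked genes go against the label. Without those 3, Ephb4 after bleomycin was at 35.3 to 65.1 CPM in control and at 4.93 and 10.1 CPM in CKO mice. With all libraries, the log2 fold change of CKO against control was -2.0 (SE 0.792) after bleomycin, with an unadjusted p of 0.0234 and an adjusted p of 0.220 by edgeR's quasi-likelihood test, and -0.73 (SE 0.722) after PBS, adjusted p = 1. After bleomycin the unadjusted p was over 0.05 without Ephb4 control bleomycin mouse 1 (log2 fold change -1.64) and without Ephb4 CKO bleomycin mouse 4 (-1.78). Without Ephb4 control bleomycin mouse 2 the log2 fold change was -2.29. After PBS the log2 fold change rested on single libraries, since leaving out Ephb4 control PBS mouse 3 gave -0.046 and leaving out Ephb4 CKO PBS mouse 2 gave -1.38. A gene count over all exons includes exons outside any deleted stretch and all cells in the culture, so it does not measure recombination.

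All 9 endothelial genes were detected in all 17 libraries. Per kilobase of exon, the median level over the libraries was highest for Cdh5 (4.64 CPM per kb), followed by Flt1 (3.26), Eng (3.10), Pecam1 (2.79), Emcn (2.33), Vwf (1.82), Tie1 (0.998), Kdr (0.944) and Tek (0.580). The ranges of all neighbours in that order overlapped. On the same scale the medians were 5.32 for Col1a1 and 14000 for Lyz2. All 9 passed the study's filter of more than 10 CPM in at least 2 libraries, which uses CPM on library totals without the TMM scaling of the CPM printed here. They did so to different degrees, since 16 libraries exceeded it for Vwf, 15 for Flt1, 14 for Cdh5, 13 for Pecam1, 10 each for Emcn and Eng, and 6 for Kdr. Tek and Tie1 exceeded it in 2 libraries, Ephb4 control PBS mouse 3 and Ephb4 control bleomycin mouse 2, and are therefore tested because of those libraries.

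The junction gene Cdh5 was at 24, 6.41, 104 and 8.31 CPM in Ephb4 control PBS mice 1 to 4, and at 14.6, 66.3, 24.5 and 21.0 CPM in Ephb4 control bleomycin mice 1 to 4. It was at 73.8, 10.2, 22.0, 10.9 and 23.2 CPM in Ephb4 CKO PBS mice 1 to 5, and at 19.5, 9.73, 13.7 and 12.1 CPM in Ephb4 CKO bleomycin mice 1 to 4. In 3 of the 4 groups 1 library stood far above the others (Ephb4 control PBS mouse 3, Ephb4 control bleomycin mouse 2 and Ephb4 CKO PBS mouse 1), and no CKO bleomycin library did. Pecam1, the other adhesion molecule, was highest in the same 3 libraries, at 91.9, 56.2 and 67.5 CPM. Its remaining 14 libraries lay between 5.97 and 25.1 CPM.

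Of the angiopoietin receptors, Tek was at 2.73, 0.259, 16 and 2.17 CPM in Ephb4 control PBS mice 1 to 4 and at 3.24, 9.30, 4.01 and 3.49 CPM in Ephb4 control bleomycin mice 1 to 4. In the CKO groups Tek lay between 0.729 and 4.52 CPM. Tie1, its partner receptor, was highest in the same libraries as Tek, with 21.0 CPM in Ephb4 control PBS mouse 3, 17.1 CPM in Ephb4 control bleomycin mouse 2 and 9.42 CPM in Ephb4 CKO PBS mouse 1. All other libraries were at or below 7.44 CPM for Tie1.

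**Figure D1:**
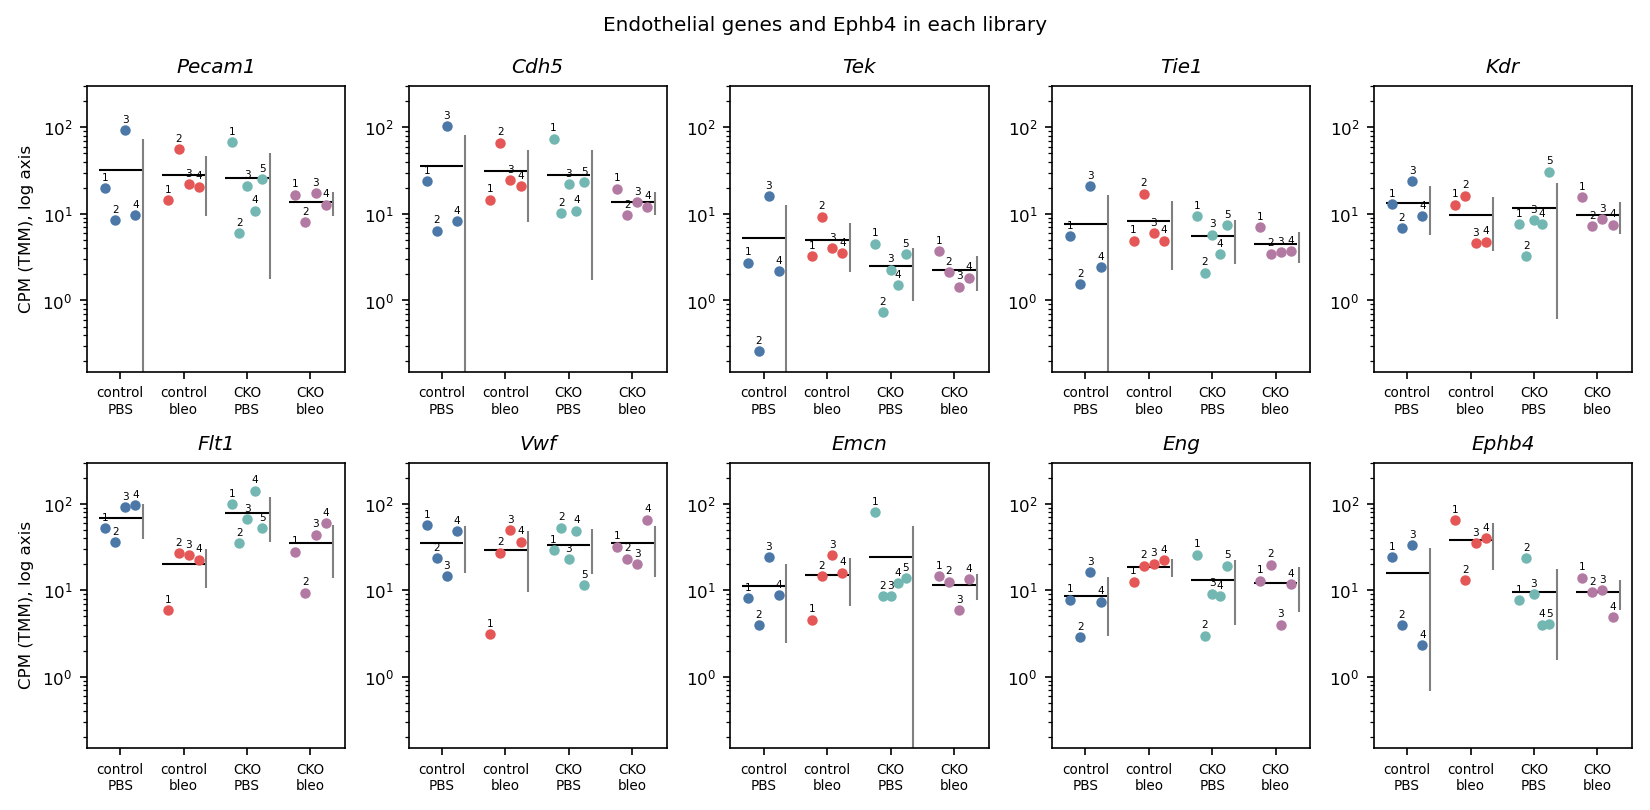
Level of each endothelial gene and of Ephb4 in every library, in CPM with TMM library sizes on a log axis, by group. Points are libraries with the mouse number above them, black lines are group means, and grey bars are the mean ± SD (n = 4, 4, 5 and 4), cut at the lower edge of the axis where the SD exceeds the mean. Pecam1, Cdh5, Tek and Tie1 share their highest libraries (control PBS mouse 3, control bleomycin mouse 2, CKO PBS mouse 1), whereas Flt1 is lower in all 4 control bleomycin libraries than in any control PBS library.

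Of the VEGF receptors, Kdr was highest in Ephb4 CKO PBS mouse 5 (30.8 CPM) and Ephb4 control PBS mouse 3 (24.1 CPM), and lowest in Ephb4 CKO PBS mouse 2 (3.27 CPM). Flt1 took another order. In Ephb4 control PBS mice 1 to 4 Flt1 was at 52.0, 36.1, 91.9 and 96.9 CPM, and in Ephb4 control bleomycin mice 1 to 4 at 5.93, 27.0, 25.5 and 22.6 CPM. In Ephb4 CKO PBS mice 1 to 5 Flt1 was at 99.5, 35.3, 66.3, 142 and 52.1 CPM, and in Ephb4 CKO bleomycin mice 1 to 4 at 28.1, 9.42, 44.1 and 59.4 CPM. Every control bleomycin library was below every control PBS library, and in the CKO mice the groups overlapped.

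Vwf, the clotting factor carrier, ranged from 3.11 CPM in Ephb4 control bleomycin mouse 1 to 65.5 CPM in Ephb4 CKO bleomycin mouse 4, with group medians of 36 (control PBS), 32.0 (control bleomycin), 29.3 (CKO PBS) and 27.6 CPM (CKO bleomycin). It was low, at 14.5 CPM, in Ephb4 control PBS mouse 3, the library highest in Cdh5. Of 5 platelet genes, 2 passed the filter, with Pf4, a chemokine that macrophages also make, at 6.90 to 385 CPM and Ppbp at 0.250 to 55.0 CPM, while the platelet receptor genes Gp9 and Gp1bb reached 0.0615 and 0.535 CPM at most. The part of platelet RNA in the Vwf level was not tested. Emcn reached 79.5 CPM in Ephb4 CKO PBS mouse 1 and lay between 3.99 and 25.6 CPM in the other 16 libraries. Eng was at 7.82, 2.88, 16.4 and 7.39 CPM in Ephb4 control PBS mice 1 to 4 and at 12.6, 19.3, 20.4 and 22.2 CPM in Ephb4 control bleomycin mice 1 to 4, so that only mouse 3 of the PBS group overlapped the bleomycin group. In the CKO groups Eng ranged from 3.0 to 25.9 CPM.

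The 2 highest libraries in Cdh5 differed in their other endothelial genes. In Ephb4 control PBS mouse 3, Cldn5, a tight junction protein, was at 28.2 CPM, Gpihbp1, the capillary carrier of lipoprotein lipase, at 28.6 CPM and Dll4, an arterial Notch ligand, at 20.9 CPM. In Ephb4 CKO PBS mouse 1 those genes were at 0.378, 0 and 0.0487 CPM, where 0 counts among the reads of that library limit Gpihbp1 to 3 counts (counting error only). That library instead held Plvap, a diaphragm protein of fenestrated and venous cells, at 36 CPM, Selp, a leukocyte adhesion molecule, at 43.8 CPM, and Pdpn, of lymphatic endothelium but also of epithelium, fibroblasts and macrophages, at 1740 CPM, each the highest of the 17 libraries. Prox1, the transcription factor of lymphatic identity, was at 7.68 CPM there against 6.05 CPM in the next library, while the lymphatic chemokine Ccl21a was at 0.0443 CPM or less in every library. Lyve1 and Flt4, also from the lymphatic list, were instead highest in Ephb4 control PBS mouse 3, at 28.9 and 22.8 CPM. With 1 library of each kind, these profiles have no replicate check.

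Across the 17 libraries, Pecam1, Cdh5, Tek and Tie1 rose and fell together. Pearson's r of log2 CPM over their 6 pairs was 0.82 to 0.97, and stayed at 0.79 or more when the 2 libraries farthest from the median were left out. Cdh5 and Pecam1 gave r = 0.97 and Spearman's rho = 0.95 (permutation p = 1e-05 for each, the smallest that 100000 resamples can give; adjusted p = 0.000145 for r over 145 relations). Of the 36 pairs among the 9 genes, 17 had a positive r with an adjusted p under 0.05 and none a negative r. The share over all pairs of genes tested was not computed, so this count has no background. Emcn and Eng were correlated with each other at r = 0.72 (rho = 0.83, permutation p = 0.00094 and 0.00012, adjusted p = 0.00505 for r, r = 0.70 without the 2 farthest libraries) and with Cdh5 at r = 0.70 and 0.62. Libraries of different treatment enter these values, so they describe all 17 cultures and not the spread within a group.

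Flt1 and Vwf did not follow the junction genes. With Cdh5, Flt1 gave r = 0.21 (rho = 0.09, permutation p = 0.422 and 0.731) and Vwf gave r = -0.16 (rho = -0.16, permutation p = 0.536 and 0.526). Within a library, the counts of Pecam1 were 0.587 to 1.33 times those of Cdh5, a 2.26-fold range over cultures in which Cdh5 itself varied 16.3-fold, and those of Tie1 were 0.128 to 0.359 times. The ratio of Flt1 to Cdh5 spanned 32.1-fold, from 0.406 in Ephb4 control bleomycin mouse 1 to 13.0 in Ephb4 CKO PBS mouse 4, and that of Vwf spanned 41.8-fold. Flt1 was positively correlated with the macrophage score (r = 0.65, rho = 0.61, permutation p = 0.00615 and 0.0122, adjusted p = 0.0198 for r, r = 0.58 without the 2 farthest libraries) and negatively with the fibroblast score (r = -0.59, rho = -0.67, permutation p = 0.0123 and 0.0042, adjusted p = 0.0325 for r, r = -0.49 without the 2 farthest). Vwf gave r = 0.61 with the macrophage score but rho = 0.09, and r = -0.38 without the 2 farthest libraries, so its r rested on Ephb4 control bleomycin mouse 1 and Ephb4 control PBS mouse 3. With the fibroblast score, Tek, Tie1 and Eng gave r = 0.63, 0.60 and 0.57 (adjusted permutation p = 0.0156, 0.0291 and 0.043). Cdh5 and Pecam1 gave r = 0.50 and 0.46 (adjusted permutation p = 0.082 and 0.112). With an epithelial score over 7 genes, Eng and Emcn gave r = -0.62 and -0.58 (adjusted permutation p = 0.0236 and 0.0358).

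The genes most like each endothelial gene across the 17 libraries, among 10481 tested, were sought as well. For Pecam1 they were Cdh5 (r = 0.970), Tie1 (0.926) and Egfl7 (0.925), a secreted factor of endothelial cells. Egfl7 was also the third for Cdh5 (0.901), Tek (0.842) and Tie1 (0.932), behind other members of the list. For Kdr they were Cd34 (0.832), a surface sialomucin of endothelial and stem cells, Prpf38a (0.790) and Cldn5 (0.775). For Emcn they were Ctla2a (0.838), Angpt2 (0.806), the angiopoietin that endothelial cells release, and Tmx1 (0.770), and for Eng they were Cd109 (0.883), Ccl7 (0.876) and Dpysl2 (0.873). Flt1 was nearest to Gm29094 (0.845), Bcl2a1d (0.841) and Bcl2a1a (0.831), of which the last 2 are near-identical copies whose counts are uncertain, and Vwf to Cxcr1 (0.943), a chemokine receptor, Ly75 (0.926), an endocytic receptor of dendritic cells, and S100a1 (0.923). No other endothelial gene of the lists was among the 3 nearest to Flt1 or Vwf.

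**Figure D2:**
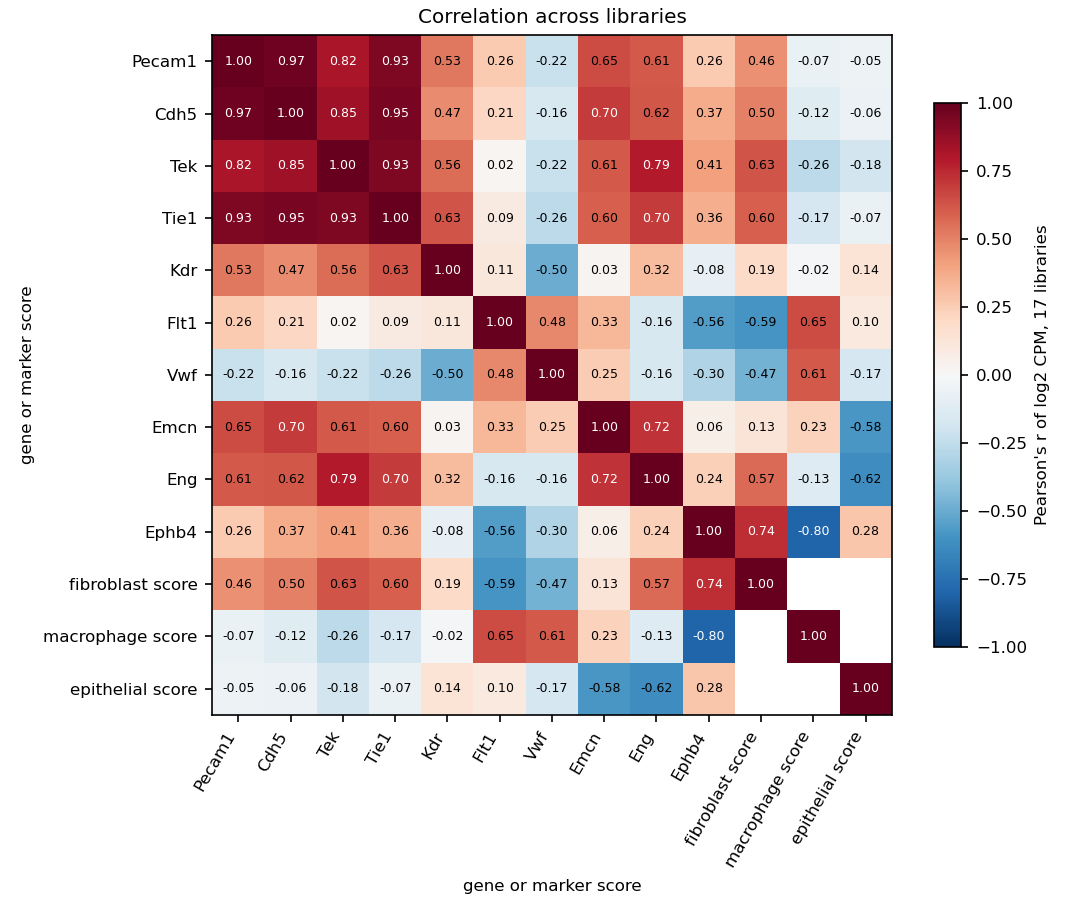
Pearson's r of log2 CPM over the 17 libraries between the 9 endothelial genes, Ephb4 and the fibroblast, macrophage and epithelial scores (rows and columns), from -1 in blue to 1 in red. Empty cells are pairs of scores, which were not computed. Pecam1, Cdh5, Tek and Tie1 form a block of r from 0.82 to 0.97, and Ephb4 has its largest r with the scores (0.74 and -0.80).

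Whether Ephb4 followed endothelial content was asked by setting its level beside each of the 9 genes. For the genes of the block the correlation was weak, with r = 0.26 for Pecam1 (rho = 0.29, permutation p = 0.319 and 0.255), 0.37 for Cdh5 (rho = 0.47, p = 0.149 and 0.0622 by permutation), 0.41 for Tek (rho = 0.46, permutation p = 0.107 and 0.0657) and 0.36 for Tie1 (rho = 0.36, permutation p = 0.157 and 0.155). None reached an adjusted p of 0.05. Of all genes tested, 62.2% had a lower r with Ephb4 than Pecam1 and 68.0% a lower one than Cdh5. Kdr, Vwf, Emcn and Eng gave r = -0.08, -0.30, 0.06 and 0.24. Flt1 had a negative r of -0.56 (rho = -0.63, permutation p = 0.0204 and 0.00878, adjusted p = 0.0443 for r), and r = -0.53 without the 2 farthest libraries. Of all genes tested, 22.6% had a lower r with Ephb4 than Flt1.

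The levels of both genes in single libraries were as follows. Ephb4 was highest, at 65.1 CPM, in Ephb4 control bleomycin mouse 1, where Cdh5 was at 14.6 CPM, and was at 13.1 and 7.70 CPM in Ephb4 control bleomycin mouse 2 and Ephb4 CKO PBS mouse 1, where Cdh5 was at 66.3 and 73.8 CPM. Ephb4 control PBS mouse 3 was high in both, at 33.4 and 104 CPM. Deletion of Ephb4 was induced in Ephb4 CKO PBS mouse 1, and the sex-linked genes of Ephb4 control bleomycin mouse 2 go against its label. Their part in these levels was not tested. The ratio of Ephb4 to Cdh5 counts spanned 42.7-fold, from 0.104 to 4.45.

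The relation differed between the series of animal numbers in the labels, which start with 11 in 8 libraries and 12 in 9. In series 11, which holds no Ephb4 control bleomycin library, r with Ephb4 was 0.874 for Pecam1, 0.859 for Cdh5 and 0.787 for Tie1 (exact permutation p = 0.0113, 0.0147 and 0.0278), and without Ephb4 control PBS mouse 3 it was 0.571, 0.521 and 0.391 (exact permutation p = 0.186, 0.241 and 0.379). In series 12 it was -0.299, -0.379 and -0.320 (exact permutation p = 0.432, 0.314 and 0.407). The difference between the series was not tested. Centred on the group means, r was 0.18, 0.32 and 0.26 (permutation within groups, p = 0.664, 0.416 and 0.539), and for Flt1 it was -0.34 (p = 0.163 by the same permutation). In the 8 Ephb4 control libraries alone, in which no deletion was induced, r was 0.45 for Pecam1 and 0.51 for Cdh5 (exact permutation p = 0.247 and 0.19). There r was 0.539 for Tek, 0.534 for Tie1 and 0.684 for Eng (exact permutation p = 0.179, 0.165 and 0.0595). For Emcn, Kdr, Vwf and Flt1 it was 0.345, 0.0758, -0.419 and -0.566 (exact permutation p = 0.4, 0.853, 0.31 and 0.152). Over all groups but without the 3 libraries whose sex-linked genes go against the label, r was 0.264 for Pecam1, 0.387 for Cdh5 and -0.66 for Flt1 (permutation p = 0.365, 0.175 and 0.00628).

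Over all 17 libraries, r of Ephb4 was larger in size with the fibroblast and macrophage scores than with any of the 9 genes. The values for the scores and the other lists were not repeated centred on group means, in the control libraries or by number series. Differences between groups therefore enter them, and they were not compared with the 9 genes on those terms. With the fibroblast score r was 0.74 (rho = 0.78, permutation p = 0.0011 and 0.0004, adjusted p = 0.0057 for r, r = 0.74 without the 2 farthest libraries), and with the macrophage score r was -0.80 (rho = -0.91, permutation p = 1e-05 for each, adjusted p = 0.000145 for r, r = -0.89 without the 2 farthest). Positive r with an adjusted p under 0.05 was found for 10 of 12 fibroblast genes, 3 of 3 mural genes (Acta2, Myh11 and Des, of contractile cells) and 3 of 13 further endothelial genes (Ptprb, Ecscr and Thbd), and negative r for 12 of 15 macrophage genes and 1 of the 13 endothelial genes (Calcrl). It was also positive for 3 of 7 epithelial genes, 3 of 4 venous and arterial genes, 1 of 3 lymphatic genes and 3 of 11 ligands and partners, negative for 2 of those 11, and past the threshold for 0 of 2 platelet genes. Such values were common, since 21.5% of all genes tested had an r with Ephb4 at or above 0.55, the weakest positive r counted here, and 22.6% one at or below -0.56, the weakest negative. The median r was 0.70 over the fibroblast genes, 0.31 over the further endothelial genes and 0.24 over the 9 endothelial identity genes, against 0.00 over all 10480 genes tested. Among genes of veins and arteries, Ephb4 followed both Nr2f2, the transcription factor of venous identity, and Efnb2, the arterial ligand of EphB4, at r = 0.90 (permutation p = 1e-05 for each, adjusted p = 0.000145). Nr2f2 was at 0.401 CPM in Ephb4 control PBS mouse 4, where Ephb4 was lowest. With the fibroblast score held fixed, r of Ephb4 was -0.141 with Pecam1, -0.00407 with Cdh5 and -0.223 with Flt1 (permutation p = 0.594, 0.988 and 0.390). Whether fibroblast or macrophage content accounts for the level of Ephb4 was not tested.

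**Figure D3:**
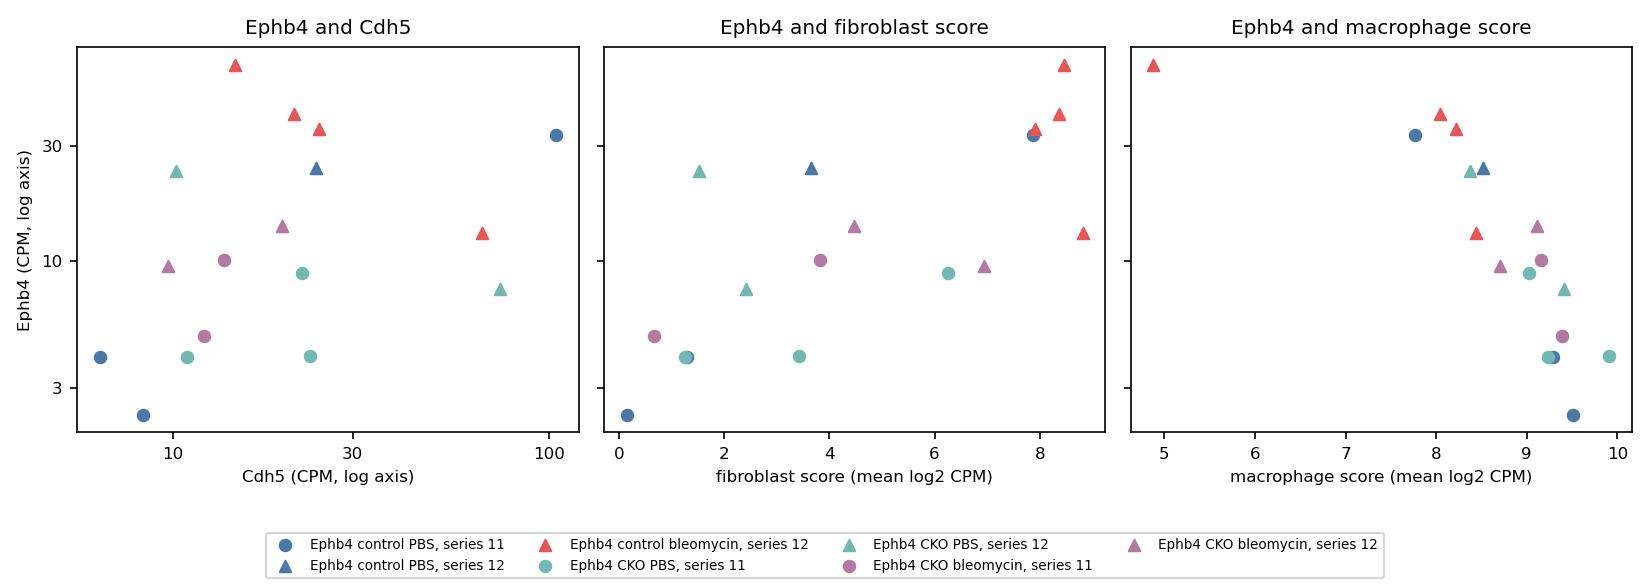
Ephb4 (CPM, log axis) against Cdh5 (CPM, log axis), the fibroblast score and the macrophage score (mean log2 CPM) in the 17 libraries. Colours are groups, and circles and triangles are animal number series 11 and 12. Ephb4 against Cdh5 has r = 0.37 (permutation p = 0.149), and it rises with the fibroblast score (r = 0.74) and falls with the macrophage score (r = -0.80).

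The effect of bleomycin in Ephb4 control mice was compared first. No endothelial gene passed an adjusted p of 0.05 by edgeR or by DESeq2, and neither did any of the 10481 genes by edgeR (0%), while DESeq2 called 1.60% of genes. At an unadjusted p under 0.05 by edgeR, 1 of the 9 genes was lower and none higher, against 7.98% of all genes lower and 6.28% higher. That gene was Flt1, at 69.2 ± 29.8 CPM after PBS and 20.3 ± 9.73 CPM after bleomycin (SD, n = 4 each), without overlap. Of the 10481 genes, 335 were lower and 599 higher without overlap. The log2 fold change of Flt1 was -1.77 (SE 0.587, 95% interval -3.02 to -0.52), with an unadjusted p of 0.00866, an adjusted p of 0.3 by edgeR and of 0.0763 by DESeq2. Of all genes, 2% had a lower log2 fold change. The fold change was -1.43 without Ephb4 control bleomycin mouse 1, the library with the lowest macrophage score, -1.93 without the 3 libraries whose sex-linked genes go against the label, and -1.35 with the macrophage score in the model (adjusted p = 0.956 by edgeR).

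The animal number series is close to the treatment in these mice, since all 4 bleomycin mice belong to series 12 and 3 of the 4 PBS mice to series 11. Within series 12 the only PBS mouse had 52.0 CPM of Flt1, above the 4 bleomycin mice. With the series in the model, the log2 fold change of Flt1 was -1.18 (adjusted p = 0.757 by edgeR, with an unadjusted p over 0.05). The columns of the table form 2 sorted runs of 8 and 9 libraries, and within each run the 2 PBS mice were above the 2 bleomycin mice. Eng, the other gene to move by more than 1 on the log2 scale, went from 8.61 ± 5.63 to 18.6 ± 4.22 CPM (SD, n = 4 each), a log2 fold change of 1.11 with an interval of -0.195 to 2.42 (adjusted p = 0.409 by edgeR). The other 7 genes had log2 fold changes between -0.47 (Kdr) and 0.43 (Emcn), with adjusted p by edgeR of 0.725 or more. Several of these values rested on single libraries. Without Ephb4 control PBS mouse 3, the library highest in Cdh5, the log2 fold change turned to 1.35 for Cdh5 (from -0.18) and to 1.21 for Pecam1 (from -0.20). It was 1.17 for Emcn and 1.67 for Eng, and 2 of the 9 genes (Flt1 and Eng) had an unadjusted p under 0.05. The share of all genes at that p in the same fit was not computed, so the count has no background. Without Ephb4 control bleomycin mouse 2 it was -0.84 for Cdh5 and -0.77 for Pecam1. With every library the median over the 9 genes was -0.18, against -0.0615 over all genes.

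In Ephb4 CKO mice, bleomycin against PBS gave no call among the 9 genes by either tool, and 0 of 9 at an unadjusted p under 0.05 (1, Flt1, when any of 4 libraries was left out, namely Ephb4 control bleomycin mouse 1, Ephb4 CKO bleomycin mouse 4 and Ephb4 CKO PBS mice 2 and 5). With every library, edgeR called 0% of all genes and DESeq2 0.00962%, and at the unadjusted p 0.248% were higher and 0.716% lower. The shares at the unadjusted p without those libraries were not computed. Flt1 again had the lowest value of the 9, at 79.1 ± 42.4 CPM after PBS (SD, n = 5) and 35.2 ± 21.4 CPM after bleomycin (SD, n = 4), a log2 fold change of -1.17 (SE 0.556, interval -2.35 to 0.0188, adjusted p = 1 by edgeR). It was -0.64 without the 3 libraries whose sex-linked genes go against the label. Emcn stood at -1.07 with every library and at 0.11 without Ephb4 CKO PBS mouse 1, whose Emcn level was the highest. The same omission took Cdh5 from -1.02 to -0.27 and Pecam1 from -0.93 to -0.21, and Kdr went from -0.25 to 0.53 without Ephb4 CKO PBS mouse 5. The interaction of genotype and bleomycin for Flt1 was 0.61 (SE 0.786, interval -1.07 to 2.28, adjusted p = 0.927 by edgeR), so a difference in the Flt1 response between genotypes was not detectable at this spread.

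**Figure D4:**
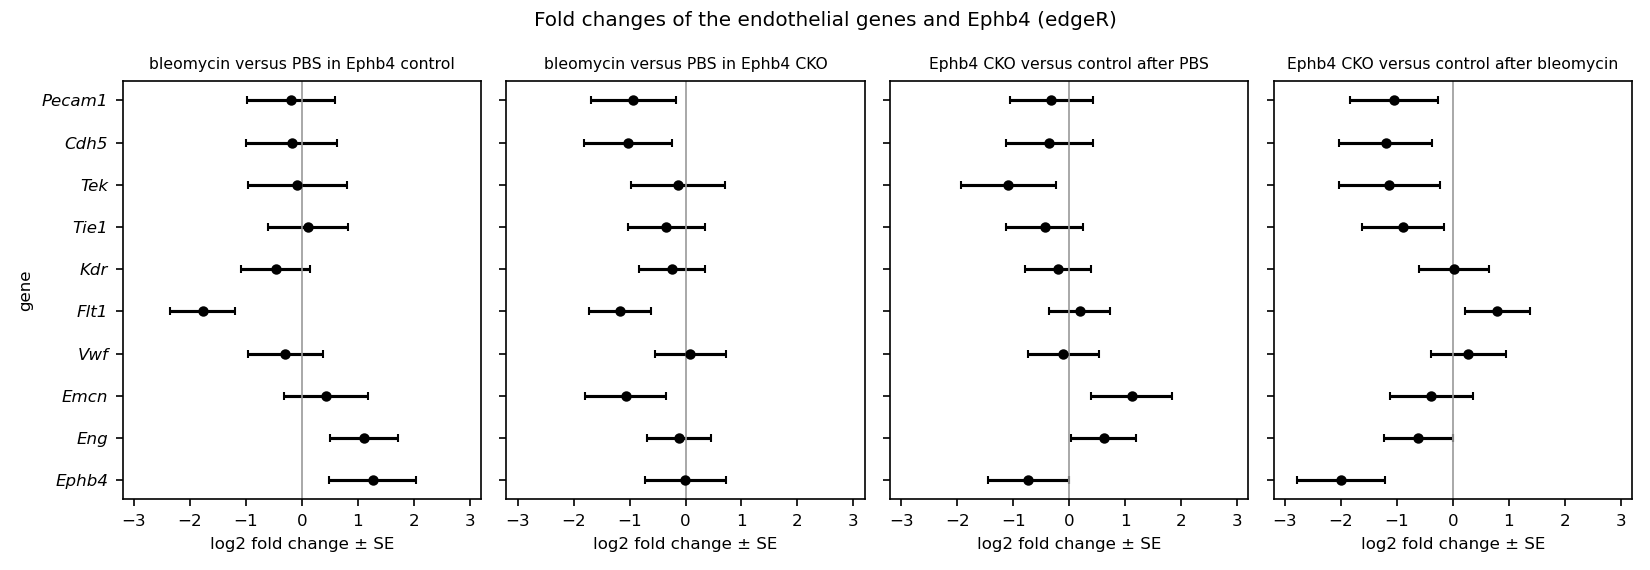
Log2 fold change ± SE of each endothelial gene and of Ephb4 in 4 comparisons, from edgeR's quasi-likelihood fit over 17 libraries. The vertical line marks no change. Flt1 is the lowest of the 9 endothelial genes in both bleomycin comparisons (-1.77 and -1.17), and Cdh5, Tek, Pecam1 and Tie1 lie between -1.20 and -0.89 in Ephb4 CKO against control after bleomycin, where Ephb4 is at -2.0. Tek and Tie1 passed the filter only through Ephb4 control libraries, which favours lower values in CKO mice.

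Ephb4 CKO was then compared with control. Both comparisons use libraries that also enter the bleomycin comparisons. After PBS, none of the 9 genes was called by either tool and none had an unadjusted p under 0.05, while over all genes edgeR called 0%, DESeq2 called 0.00962%, and 1.43% were higher and 0.563% lower at the unadjusted p. Log2 fold changes ran from -1.08 (Tek) to 1.12 (Emcn), with a median of -0.21 against -0.0199 over all genes. Tek passed the filter only through Ephb4 control libraries, which favours a lower value in CKO mice. Emcn was at 11.3 ± 8.83 CPM in control (SD, n = 4) and 24.5 ± 30.8 CPM in CKO mice (SD, n = 5), and its log2 fold change was -0.08 without Ephb4 CKO PBS mouse 1. Without Ephb4 control PBS mouse 3 it was 1.83, and Emcn was then the only 1 of the 9 genes with an unadjusted p under 0.05. The share of all genes at that p in the same fit was not computed. The direction of the junction genes depended on the same libraries, with Cdh5 at 1.13 and Pecam1 at 1.05 without Ephb4 control PBS mouse 3, and at -1.13 and -1.06 without Ephb4 CKO PBS mouse 1. Kdr went from -0.21 to -0.98 without Ephb4 CKO PBS mouse 5.

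After bleomycin, none of the 9 genes was called or had an unadjusted p under 0.05. Over all genes edgeR called 0% and DESeq2 3.84%, and at the unadjusted p 11% were higher and 9.18% lower. The 4 genes of the block had lower values in CKO mice, with log2 fold changes of -1.20 for Cdh5 (SE 0.826, interval -2.96 to 0.56), -1.14 for Tek, -1.05 for Pecam1 and -0.89 for Tie1 (adjusted p by edgeR 0.387 to 0.464). Cdh5 stood at 31.6 ± 23.5 CPM in control and 13.8 ± 4.16 CPM in CKO mice (SD, n = 4 each), with overlap, and its log2 fold change was -0.54 without Ephb4 control bleomycin mouse 2 and -0.68 without the 3 libraries whose sex-linked genes go against the label. The same omissions gave -0.48 and -0.38 for Pecam1, and took Tek and Tie1 below the filter. Since these 4 genes moved together over the libraries, their 4 values are not separate observations. Tek and Tie1 also passed the filter only through 2 libraries, both Ephb4 control. That favours lower values in CKO mice, so these 2 genes are no support for a difference. Eng (-0.61), Emcn (-0.38), Kdr (0.02), Vwf (0.27) and Flt1 (0.80) completed the list. Without the 3 libraries Flt1 was at 1.48 (adjusted p = 0.304 by edgeR) and Eng at -1.25. With all libraries the median over the 9 genes was -0.61 against 0.00931 over all genes.

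The fibroblast and macrophage genes were set beside this comparison. Of 12 fibroblast genes 12 had a lower value in CKO mice, with a median log2 fold change of -2.42, and edgeR's p was below 0.05 for 2 of them unadjusted and for 0 adjusted. Of 15 macrophage genes 15 had a higher value, with a median of 1.20, and p was below 0.05 for 5 unadjusted and for 0 adjusted. In this comparison edgeR called 0% of all genes and DESeq2 3.84%. By DESeq2 the adjusted p was 0.0468 for Col1a1, of the fibroblast list, and 0.0182 for Marco, of the macrophage list. Of all genes tested, 50.7% were higher. With the fibroblast score in the model, the log2 fold changes of Pecam1, Cdh5, Tek, Tie1 and Eng were 0.38, 0.41, 0.40, 0.60 and 0.03, and that of Ephb4 was -0.95 (adjusted p = 0.999 by edgeR). The part of culture composition in these differences was not tested. For the interaction of genotype and bleomycin, no endothelial gene was called or had an unadjusted p under 0.05, and over all genes both tools called 0%, with 1.89% higher and 1.57% lower at the unadjusted p. The interaction was -1.50 for Emcn (SE 1.04, adjusted p = 0.916 by edgeR), -0.85 for Cdh5 and -0.73 for Pecam1. Without Ephb4 control PBS mouse 3 these were -2.24, -2.38 and -2.15, and 3 of the 9 genes then had an unadjusted p under 0.05, while without Ephb4 CKO PBS mouse 1 they were -0.32, -0.085 and -0.0056. The share of all genes at that p without Ephb4 control PBS mouse 3 was not computed, so the count has no background. Kdr went from 0.22 to 1.00 without Ephb4 CKO PBS mouse 5.

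Other genes of the endothelium and of its signals were read from wider lists. Of 25 further endothelial genes, 13 passed the filter, of which Calcrl (64.0 ± 49.2 CPM), Thbd (51.9 ± 31.6), S1pr1 and Car4 had the highest means over the 17 libraries (SD). None was called by edgeR in any comparison. After bleomycin in Ephb4 control mice, Calcrl, a peptide hormone receptor of vessels that macrophages also use, went from 77.2 ± 42.4 to 20.6 ± 10.3 CPM (SD, n = 4 each), a log2 fold change of -1.91 (adjusted p = 0.289 by edgeR). Thbd, an anticoagulant receptor that monocytes and macrophages also make, went from 38.1 ± 19.6 to 93.4 ± 22.2 CPM (SD, n = 4 each), a log2 fold change of 1.29 (adjusted p = 0.323 by edgeR). Neither overlapped between the groups, as was so for 335 lower and 599 higher genes of the 10481 tested. Of the 13 genes, 9 had a lower value and 4 a higher one after bleomycin in control mice (median -0.157), and 11 had a lower value in CKO than in control mice after bleomycin (median -0.819).

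Among 17 ligands and partners of the receptors, 11 passed the filter and none was called by edgeR. Vegfa, the main ligand of KDR and FLT1, was at 155 ± 151 and 155 ± 99.1 CPM in control mice after PBS and bleomycin (SD, n = 4 each), and at 87.7 ± 76.3 (SD, n = 5) and 85.1 ± 62.9 CPM (SD, n = 4) in CKO mice. Vegfc, the lymphatic VEGF, ranged from 0.169 CPM in Ephb4 control PBS mouse 2 to 35.0 CPM in Ephb4 control bleomycin mouse 1. Of the TEK ligands, Angpt2 was present in every library (3.94 to 37.9 CPM), whereas Angpt1 did not pass the filter and reached 9.81 CPM in Ephb4 control PBS mouse 3, the library highest in Tek. Pgf, a ligand of FLT1, was lower in CKO than in control mice after bleomycin, with a log2 fold change of -2.61 (SE 1.00, adjusted p = 0.218 by edgeR). Its groups did not overlap, as was so for 1275 lower and 1148 higher genes of the 10481 tested.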

How the data were processed

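Total RNA of 17 fibroblast cultures, each from 1 mouse, was sequenced after ribosomal depletion with a stranded kit as paired reads. Per the labels, the authors trimmed reads with cutadapt 1.18, aligned them to GRCm38 with HISAT2 2.1.0 and used StringTie, and they deposited whole-number gene counts, which were used as they stand. The sequencing pool of each library is not given in the sources used here, so the leading digits of the animal numbers and the runs of sorted columns stood in as possible batches. Groups were taken from the labels. Replicate numbers were given in accession order, and p-values measure the spread between these cultures.

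Genes above 10 CPM on library totals in at least 2 libraries were kept (10481 of 55421), whereas printed CPM use TMM library sizes. All 17 libraries entered 1 model with a term per group, fitted by edgeR 4.0.16 (quasi-likelihood test, TMM library sizes) in R 4.3.3, with 95% intervals from the t distribution at the fit's total degrees of freedom (15 for the 9 genes) and Benjamini-Hochberg adjustment over all genes kept. DESeq2 1.42.0 and limma 3.58.1 (voom) were alternatives, and the scripts were tested on simulated data. The floor of 3 counts covers counting error only, since reads without molecular identifiers are not independent molecules.

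Correlations used log2 CPM (prior count of 2), with permutation p from 100000 resamples (all permutations for 9 or fewer libraries) in scipy 1.17.1, adjusted over 145 relations. A score is the mean of the same log2 CPM over the listed genes kept. Partial correlations permuted residuals. The endothelial genes, the wider lists and the naming rule were chosen with earlier results of these data known. The rule names the 9 genes and Ephb4, the 3 genes most like each across the libraries, and from each list the genes that pass the test or otherwise at most 4, those with the highest mean CPM. The genes that set the 2 libraries highest in Cdh5 apart (Cldn5, Gpihbp1, Plvap, Selp, Prox1 and Ccl21a), the list genes with an r of adjusted p under 0.05 named beside Ephb4 (Ptprb and Ecscr), and Vegfc, Angpt1, Pgf, Gp9, Gp1bb and Marco fall outside it and were chosen after their values were seen. Positions came from GENCODE annotation of GRCm38, in which 55154 identifiers matched. Alternatives covered other filters, library sizes, tools, covariates and omitted libraries.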

Additional observations from a re-analysis of the deposited data

Results flagged for a closer look

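In 9 of 40 pairs of gene and group, the highest library stood apart from its group by Dixon's test on CPM. The test assumes normally distributed values, which was not checked for these CPM, so no chance rate is set beside the count. The pairs are not independent, because several share a library. Ephb4 control PBS mouse 3 stood apart in Pecam1 (91.9 CPM, next 20 CPM) and in Tek (16 CPM, next 2.73 CPM). Ephb4 control bleomycin mouse 2 stood apart in Tek (9.30 CPM, next 4.01 CPM) and Tie1 (17.1 CPM, next 5.97 CPM), and its sex-linked genes go against its label. Ephb4 CKO PBS mouse 1 stood apart in Cdh5 (73.8 CPM, next 23.2 CPM) and Emcn (79.5 CPM, next 13.9 CPM). Single genes stood apart in Ephb4 CKO PBS mouse 5 (Kdr, 30.8 CPM, next 8.52 CPM), in Ephb4 CKO bleomycin mouse 1 (Tie1, 7.0 CPM, next 3.68 CPM) and in Ephb4 CKO PBS mouse 2 (Ephb4, 23.6 CPM, next 8.97 CPM).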

How the results depend on the processing

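No endothelial gene passed an adjusted p of 0.05 in any comparison under any of the alternatives run, whereas over all genes DESeq2 called 166, 1, 399, 1 and 0 of 10392 genes (bleomycin in control, CKO after PBS, CKO after bleomycin, bleomycin in CKO, interaction) and edgeR called 0 in each. Of 1504 alternative values for 50 log2 fold changes, 120 had the opposite sign, in 10 of which the reported value was larger than its SE. Leaving out single libraries gave Emcn values of -0.078 to 1.83 (CKO against control after PBS) and of -1.31 to 0.11 (bleomycin in CKO), -0.078 and 0.11 being those without Ephb4 CKO PBS mouse 1. With the fibroblast score as a covariate, CKO against control after bleomycin went to 0.38 for Pecam1, 0.41 for Cdh5, 0.40 for Tek, 0.60 for Tie1 and 0.032 for Eng, and the cause was not tested.

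The number of endothelial genes whose r with Ephb4 had a permutation p under 0.05 was 1 over all libraries. It was 3 in number series 11, and 0 in series 12, in series 11 less its library highest in Cdh5, in column run 1, in the control libraries, centred on group means, and with the fibroblast or macrophage score held fixed. Leaving out single libraries gave 0 (without Ephb4 control bleomycin mouse 1) to 2 (without Ephb4 CKO PBS mouse 2). The share of all genes at that p was not computed for these settings, so the counts have no background. The r of Flt1 was 0.015 in series 11. In series 12 it was -0.299 for Pecam1, -0.379 for Cdh5, -0.153 for Tek and -0.320 for Tie1. With the fibroblast score held fixed it was -0.141 for Pecam1, -0.00407 for Cdh5, -0.109 for Tek, -0.156 for Tie1 and 0.0708 for Vwf. That of Vwf ranged from -0.424 to 0.0679 when single libraries were left out (0.0679 without Ephb4 control bleomycin mouse 1) and was 0.394 with the macrophage score held fixed. Tek and Tie1 have no value where a left-out library takes them below the filter. The labels give no shared replicate numbers, and do not say what the animal numbers mark. Their first 3 digits, entered as a replicate block after seeing the data, left 0 of the 9 genes at an unadjusted p under 0.05 in every comparison (Flt1 otherwise, for bleomycin in control), and gave Ephb4 -0.498 for bleomycin in control and interactions of 0.50 for Emcn and 0.59 for Ephb4. Of 13 pairs of libraries from different groups that share these digits, 6 had deviations correlated above 0.1. Their r ran from -0.48 to 0.76, with a median of 0.05 against 0 over 95 other pairs. With so few pairs, these values cannot decide whether the digits mark a pairing.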
